A study of Mus musculus with 3 samples.

Results

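The comparison described here set bone marrow (BM) cells of mice injected with LECT2 for 5 days against BM cells at 0 days. LECT2 is a chemotactic protein that circulates in plasma. All genes with a read in either library were taken, which were 17196 of the 17559 gene rows of the series and 16912 gene names, from 2 of its 3 samples. Of these, 11494 genes reached 1 RPKM in at least 1 of the 2 libraries and form the background of the counts over all genes. RPKM scale the reads of a gene by its length and by the size of the library.

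Each library was poly(A)-selected RNA from cells flushed out of femur, tibia, pelvis and humerus of C57BL/6 mice 6 to 8 weeks old. The 3-day and 5-day groups received recombinant LECT2 subcutaneously once a day at 300 μg per kg, with the protein produced in CHO cells. The 0-day group is given as 0 days of the same injections, and the labels name no injection of vehicle for it. The study's methods describe flushed BM cells, whereas a legend in its supplement speaks of mononuclear cells, a preparation from which most mature granulocytes are removed. Which of these was sequenced cannot be told from the sources used here. The number of mice behind each library is not given in the sources used here. There was 1 library per time point, so no difference has a replicate check and no p-value is given. The 3-day library is given beside the other libraries for orientation, and it shares the 0-day library as a reference.

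BM produces granulocytes, monocytes, erythrocytes, platelets and B cells side by side. Neutrophils pass through stages that can be read from their mRNA: promyelocytes make the enzymes of primary granules, myelocytes and metamyelocytes make the proteins of secondary and tertiary granules, and late cells carry mRNA for S100 proteins, stefins and chemoattractant receptors. Inflammatory cytokines and immediate early genes are switched on within minutes to hours of a stimulus, and their mRNA is short-lived. In a bulk sample, fewer cells of a type and less RNA per cell cannot be told apart.

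The tables held 15523952, 15146983 and 15514673 reads at 0, 3 and 5 days. For a gene of 1000 bases, 1 read equalled 0.0644 RPKM at 0 days. The 10 genes with the most reads took up 12.5%, 10.4% and 5.38% of all reads, in the order 0, 3 and 5 days. Over 11162 genes whose mean reached 1 RPKM, the median log2 ratio was 0.31, and it was 0.01 after scaling by trimmed mean of M values (TMM), which moves all ratios down together. Defining markers of the erythroid, B cell and neutrophil lineages were read in both libraries, with levels that ranged widely over marrow markers. Beta-s (adult beta globin) stood at 6999 RPKM at 0 days and 2540 RPKM at 5 days, Cd79a (B cell receptor signalling chain) at 827 and 532 RPKM, and Elane (neutrophil elastase) at 1142 and 1451 RPKM. The platelet marker Itga2b (integrin alpha IIb) stood lower, at 10.8 and 11.2 RPKM, and the pan-leukocyte marker Ptprc (CD45) rested on 82 and 557 reads.

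With the deposited RPKM, 1786 genes (15.5%) were at least 2-fold higher at 5 days and 679 genes (5.91%) were at least 2-fold lower, on the scale of log2(RPKM + 0.1). With TMM scaling, 832 genes (7.24%) were at least 2-fold higher and 1144 (9.95%) lower, so that the share of higher genes among those 2-fold different moved from 72.5% to 42.1%. With the trend on gene length also removed, 593 genes (5.16%) were higher and 870 (7.57%) lower. Larger differences leaned to the other side: 153 genes were 4-fold higher or more and 186 were at least 4-fold lower with the deposited RPKM. Since TMM scaling moves all ratios down, all 186 stayed at least 4-fold lower by construction, and 74 of the 153 stayed at least 4-fold higher. With the length trend also removed, 159 of the 186 and 68 of the 153 stayed at least 4-fold apart. The genes at least 4-fold lower were short, with a median length of 1346 bases, and those at least 4-fold higher had a median of 3431 bases, against 2683 bases over all genes tested. The 24 genes at least 8-fold higher were shorter, with a median of 1668 bases, and the 62 at least 8-fold lower had a median of 642 bases.

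The 15 largest falls, among genes with at least 5 RPKM in either library and more than 3 reads in both, held 4 chemokine or cytokine genes of inflammation, Cxcl1, Cxcl2, Cxcl10 and Tnf, together with Il10, and 5 genes of the late neutrophil list. The neutrophil chemoattractant Cxcl2 stood at 379, 192 and 18.1 RPKM at 0, 3 and 5 days, a 20.9-fold difference between 0 and 5 days. Irg1 (Acod1), which makes itaconate in activated myeloid cells, stood at 82.2, 44.9 and 2.74 RPKM and was 29.0-fold lower at 5 days (log2 ratio −4.86, 95% counting interval −5.20 to −4.63). Both genes were already lower in the 3-day library. Tnf stood at 92.0, 60.5 and 6.61 RPKM, and Il10, an anti-inflammatory cytokine, at 9.37, 3.08 and 0.395 RPKM.

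Late neutrophil genes were the other large block of falls. Retnlg, which encodes a secreted resistin-like protein, stood at 6507, 4839 and 419 RPKM at 0, 3 and 5 days, a log2 ratio of −3.96 (interval −4.00 to −3.91). Il1r2, the decoy receptor for interleukin-1, stood at 226, 109 and 14.0 RPKM, and G0s2, an inhibitor of triglyceride lipase that is not on the list, at 483, 364 and 32.2 RPKM. The stefin genes Stfa2l1, Stfa2 and Gm5483 (protease inhibitors) were between 16.7-fold and 31.5-fold lower. These stefins have near-identical copies, so that the reads of each single gene are uncertain. Gm5483 rested on 177 reads at 0 days and 5 at 5 days, and Stfa2 on 83 and 4. Stfa2l1 was higher at 3 days (121 RPKM) than at 0 days (90.1 RPKM), and then stood at 5.29 RPKM at 5 days.

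The lowest ratio of the 15 belonged to Rn7sk, the 7SK small nuclear RNA that restrains transcription elongation, with 220, 69.0 and 4.47 RPKM at 0, 3 and 5 days. Rn7sk has no poly(A) tail, and poly(A) selection therefore passes an unknown part of it. The remaining members of the 15 were 5430421N21Rik and the hair keratin gene Krt81, both low at 5 days with 2.40 and 0.451 RPKM. All 15 kept a log2 ratio under −3 with TMM scaling and with the length trend removed.

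**Figure D1:**
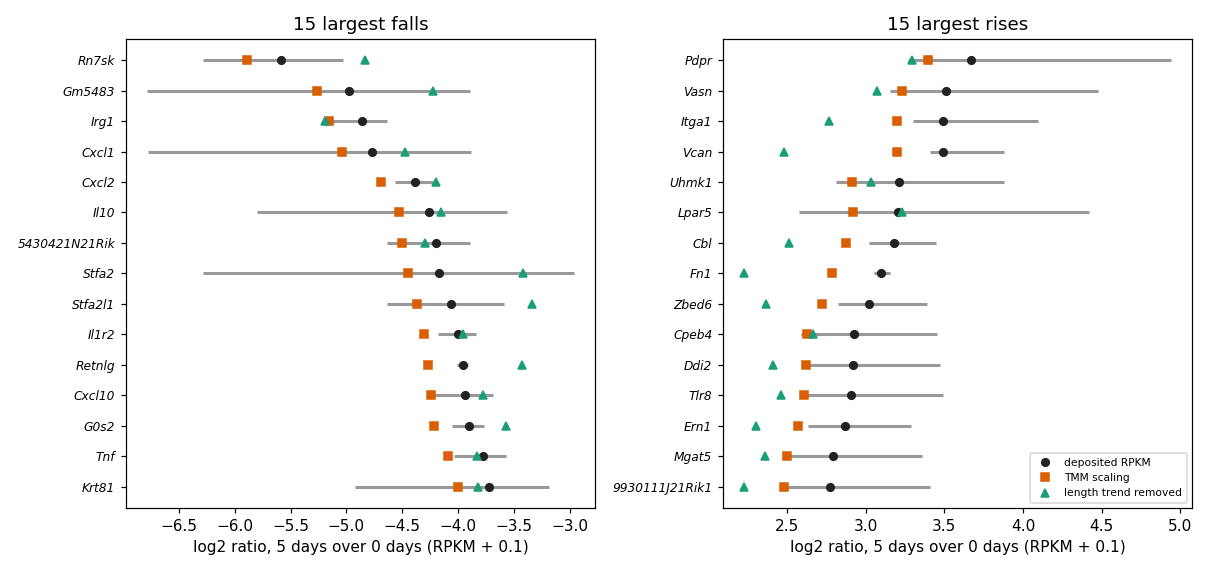
Log2 ratio of RPKM + 0.1 between 5 and 0 days (horizontal axes) for the 15 largest falls (left) and the 15 largest rises (right), with deposited RPKM (circles), TMM scaling (squares) and the length trend removed (triangles). Grey bars are 95% exact counting intervals of the ratio of the deposited counts, without pseudocount, and cover counting error only; Rn7sk lies lowest at −5.59 and Pdpr highest at 3.67.

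The 15 largest rises were mostly low at 0 days and came from several functions, with matrix and signalling genes among them. The matrix gene Fn1 (fibronectin) was the only 1 of the 15 with more than 5 RPKM at 0 days: it stood at 25.9, 102 and 223 RPKM at 0, 3 and 5 days, 8.55-fold higher (log2 ratio 3.10, interval 3.05 to 3.15). The proteoglycan gene Vcan (versican) stood at 0.850, 2.94 and 10.6 RPKM, and the collagen-binding integrin gene Itga1 at 0.635, 2.91 and 8.16 RPKM. Fn1 and Vcan are both abundant in monocytes.

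Signalling genes were the next group. The ubiquitin ligase gene Cbl, which ends receptor tyrosine kinase signals, stood at 2.56, 15.4 and 24.0 RPKM. Tlr8, an endosomal sensor of RNA, stood at 0.979, 6.27 and 7.98 RPKM, and Ern1 (the IRE1 sensor of unfolded protein) at 1.43, 5.68 and 11 RPKM. The lysophosphatidic acid receptor gene Lpar5 rested on 12 reads at 0 days and 129 at 5 days. In each of these 4 genes the 3-day value lay between the other values.

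On this scale the ratio was highest for Pdpr, a regulator of pyruvate dehydrogenase phosphatase, with 0.311, 2.66 and 5.13 RPKM from 14, 117 and 231 reads (log2 ratio 3.67, interval 3.27 to 4.94). The order of the rises depended on the pseudocount: with 1 RPKM in place of 0.1 the ratio of Pdpr was 2.23 and that of Fn1 3.05. The others were Vasn (a binder of TGF-beta), the kinase gene Uhmk1, the mRNA-binding protein gene Cpeb4, the protease gene Ddi2, the glycosyltransferase gene Mgat5, Zbed6 and 9930111J21Rik1. Zbed6 lies inside the gene Zc3h11a and 9930111J21Rik1 has a near-identical copy, so that their reads are uncertain. For 8 of the 15 the gene length in the table was under 60% of the longest GENCODE transcript of that gene, which held for 13.8% of all genes tested and for 34.7% of the genes at least 4-fold higher. It also held for 4 of the 13 largest falls with a GENCODE length, and for 12.6% of the genes at least 4-fold lower. The part of this in the ratios was not tested. All 15 kept a log2 ratio over 2 with TMM scaling and with the length trend removed. After this step the 10 largest rises also held the small nucleolar RNA Snora81, at 10.2, 19.7 and 42.4 RPKM, and Ulbp1, a ligand of natural killer cells, at 1.38, 4.36 and 9.0 RPKM, and the 10 largest falls held no other gene. Snora81 rested on 26 reads at 0 days and 108 at 5 days, and since small nucleolar RNAs lack a poly(A) tail its level is as uncertain as that of Rn7sk.

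Gene length moved with the ratio over the whole table. In 10 groups of genes of rising length, the median log2 ratio went from −0.42 for genes of 76 to 1048 bases to 0.85 for genes of 5802 to 83437 bases, with a rise at each step. In the shortest group 28 of 1117 genes were at least 2-fold higher against 191 lower, and in the longest group 438 of 1117 were higher and 11 lower. TMM scaling left the slope as it was, with medians from −0.72 to 0.55. Whether the trend arose in the animals or in the libraries cannot be told apart with 1 library per time point.

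**Figure D2:**
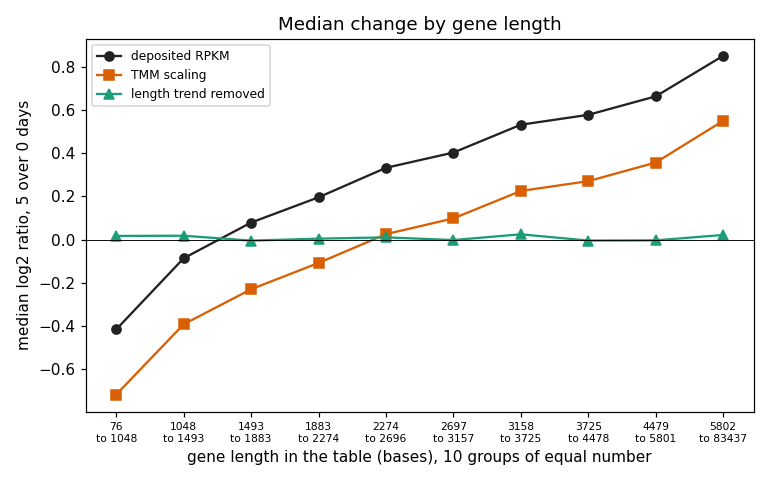
Median log2 ratio of 5 over 0 days (vertical axis) in 10 groups of genes by length in bases (horizontal axis), with deposited RPKM, TMM scaling and the length trend removed. The deposited medians climb from −0.42 to 0.85, and those with the trend removed lie between −0.01 and 0.02.

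To describe cell types and pathways, 49 lists of genes were summarised by their median and by their counts at least 2-fold apart, 21 of them for cell types and 28 for pathways. The lists held 61 of the 186 genes at least 4-fold lower and 8 of the 153 at least 4-fold higher, so that most of the larger rises fall outside them. A median was read against the 0.31 of all genes, and a count against the genes filtered in the same way as the list members, those whose mean reached 1 RPKM. Of these 11162 genes 15.1% were at least 2-fold higher and 5.35% lower as deposited, against 6.84% and 9.33% once TMM-scaled, and 4.72% and 6.99% after removal of the length trend. The lowest medians belonged to late neutrophil genes (−2.65), inflammatory cytokine and chemokine genes (−1.95) and immediate early genes (−1.48). The highest belonged to mitosis genes (1.18), large cytoskeleton genes (1.02) and monocyte genes (1.01). After removal of the length trend the median of large cytoskeleton genes was 0.13, under those of monocyte (0.72) and mitosis genes (0.68).

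**Figure D3:**
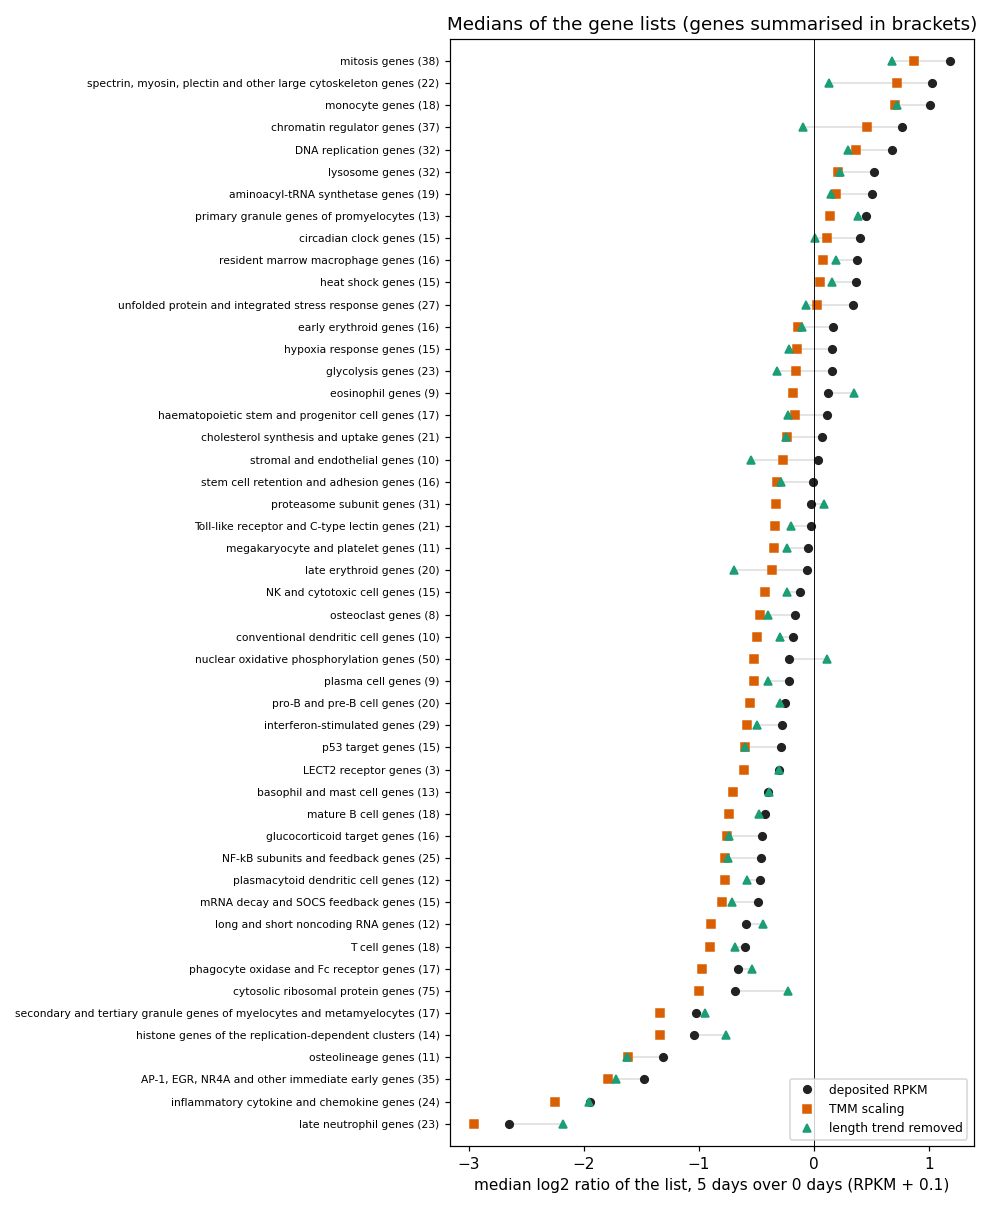
Median log2 ratio of 5 over 0 days (horizontal axis) of each of the 49 gene lists, with the number of members summarised in brackets, for deposited RPKM (circles), TMM scaling (squares) and the length trend removed (triangles). Late neutrophil genes lie at −2.65, −2.96 and −2.18 and mitosis genes at 1.18, 0.87 and 0.68.

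Granulocyte genes differed by stage, in the order of maturation. Of 13 primary granule genes, 1 was at least 2-fold higher, none was 2-fold lower, and the median was 0.45 (TMM 0.14, with 1 higher and 1 lower). Mpo (myeloperoxidase) stood at 435, 581 and 1237 RPKM (log2 ratio 1.51), and Elane at 1142, 923 and 1451 RPKM (log2 ratio 0.35). The lowest ratio of the list was that of the inhibitory lectin receptor gene Clec12a, which stood at 283, 224 and 165 RPKM (log2 ratio −0.78, TMM −1.09, length trend removed −1.02).

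Of 17 secondary and tertiary granule genes, none was 2-fold higher and 9 were at least 2-fold lower, with a median of −1.03. Camp (cathelicidin) stood at 14235, 7762 and 3609 RPKM at 0, 3 and 5 days, and Mmp8 (neutrophil collagenase) at 1017, 1064 and 175 RPKM. Lyz2 (lysozyme), which monocytes also carry, stood at 3878, 5120 and 3898 RPKM. Camp was thus lower at both times, Mmp8 at 5 days alone, and Lyz2 at neither.

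Of 23 late neutrophil genes, none was 2-fold higher and 19 were at least 2-fold lower, 16 of them at least 4-fold, whereas in the 3-day library 1 of the 23 was at least 2-fold lower and 1 at least 2-fold higher. The list was written with the stefin genes Stfa1, Stfa2, Stfa3, Stfa2l1, BC100530 and Gm5483. Reads of these copies are uncertain for each single gene, so that they are not separate members in such counts. S100a9, a subunit of calprotectin, stood at 61729, 44195 and 14032 RPKM, and its partner S100a8 at 28717, 23982 and 7789 RPKM. The lectin gene Clec4d stood at 44.6, 41.7 and 3.57 RPKM. The list took 4.90%, 3.77% and 1.19% of all reads at these times, and the granule list of the middle stage took 7.32%, 6.80% and 3.28%.

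With the length trend removed the 3 medians were 0.38, −0.95 and −2.18, in the same order. Receptor and oxidase genes of phagocytes lay between the stages, with a median of −0.67. Of 17, 5 were at least 2-fold lower and 1 at least 2-fold higher, and TMM scaling gave 8 and 0. Among them Trem1, an amplifying receptor of neutrophils and monocytes, stood at 194, 170 and 26.3 RPKM, whereas Fcgr1, the high-affinity Fc receptor of monocytes, stood at 4.35, 6.48 and 9.29 RPKM.

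**Figure D4:**
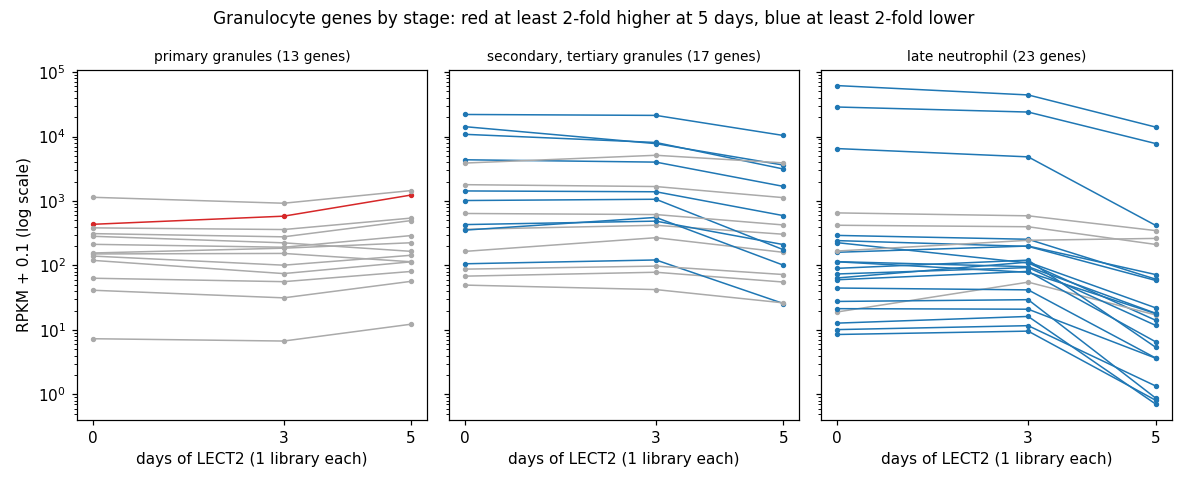
RPKM + 0.1 (vertical axes, log scale) of primary granule, secondary and tertiary granule and late neutrophil genes in the libraries at 0, 3 and 5 days (horizontal axes), with 1 line per gene, red where at least 2-fold higher at 5 than at 0 days, blue where at least 2-fold lower and grey otherwise. Blue lines number 0 of 13, 9 of 17 and 19 of 23 from left to right, and most late neutrophil genes drop between 3 and 5 days.

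Monocyte genes went the other way. Of 18, 9 were at least 2-fold higher, 2 were at least 2-fold lower, and TMM scaling left 8 higher and 2 lower. Besides Fn1 and Vcan, the transglutaminase gene F13a1 stood at 72.0, 177 and 365 RPKM at 0, 3 and 5 days (log2 ratio 2.34). The pore-forming protein gene Mpeg1 stood at 127, 214 and 307 RPKM. Ly6c2, a surface marker of classical monocytes, stood at 932, 993 and 1138 RPKM (log2 ratio 0.29, and −0.02 with TMM scaling). The lower members were Cd14, the co-receptor for lipopolysaccharide that neutrophils also carry, at 148, 99.3 and 36.9 RPKM, and Nr4a1, which also stands in the immediate early list.

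Resident macrophage genes had a median of 0.37 (TMM 0.07, length trend removed 0.19), near the 0.31 of all genes. Of 16, 3 were at least 2-fold higher and none lower (2 and 0 with TMM scaling), near the 15.1% of all genes so filtered. The complement gene C1qa stood at 62.4, 57.6 and 54.4 RPKM. Siglec1 (CD169), a marker of marrow macrophages, was low at 1.09 RPKM at 0 days and stood at 4.51 RPKM at 5 days (log2 ratio 1.95, length trend removed 1.19). Of 32 lysosome genes, 6 were at least 2-fold higher and 1 lower (1 and 2 with TMM scaling), with a median of 0.52 (TMM 0.21), and the protease gene Ctsc stood highest by ratio at 41.1, 77.7 and 134 RPKM.

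Of 24 inflammatory cytokine and chemokine genes, 18 were at least 2-fold lower and 1 was at least 2-fold higher, and 12 were at least 4-fold lower. In the 3-day library 7 were at least 2-fold lower. Ccl3 and Ccl4, chemokines for monocytes and lymphocytes, stood at 835, 534 and 269 RPKM and at 594, 199 and 68.5 RPKM. Cxcl3 and Il23a had no read at 5 days, so that no fold is given for them. Tgfb1, a regulatory cytokine of many leukocytes, was the exception, at 104, 148 and 225 RPKM (log2 ratio 1.11, TMM 0.80).

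Immediate early genes, which encode AP-1, EGR, NR4A and Kruppel-like factors and their feedback phosphatases, were lower as a group. Of 35, 26 were at least 2-fold lower and none was 2-fold higher, and TMM scaling gave 28 and 0. The lowest ratio belonged to Klf2, a factor of quiescent lymphocytes and myeloid cells, which stood at 1147, 617 and 92.8 RPKM (log2 ratio −3.63). The AP-1 subunit gene Junb stood at 716, 535 and 210 RPKM, and Fos at 700, 890 and 319 RPKM. Fos was thus higher at 3 days than at 0 days, while Klf2 and Junb were lower. The highest ratio of the list was that of Srf, at 20.0, 20.9 and 27.1 RPKM.

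The NF-kB list held feedback inhibitors and the subunits themselves. Of 25 genes, 8 were at least 2-fold lower and none higher, with a median of −0.47. Nfkbia (IκBα), the inhibitor that NF-kB itself induces, stood at 991, 401 and 172 RPKM (log2 ratio −2.53). Tnfaip3 (A20), a deubiquitinase that ends the signal, stood at 170, 122 and 48.5 RPKM. The subunit gene Nfkb1 stood at 35.6, 47.0 and 57.4 RPKM, with a log2 ratio of 0.69 (TMM 0.38, length trend removed 0.10). Of 15 genes for mRNA decay and SOCS feedback, 4 were at least 2-fold lower and 2 at least 2-fold higher. Zfp36 (tristetraprolin), which destabilises cytokine mRNA, stood at 1228, 1055 and 395 RPKM.

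**Figure D5:**
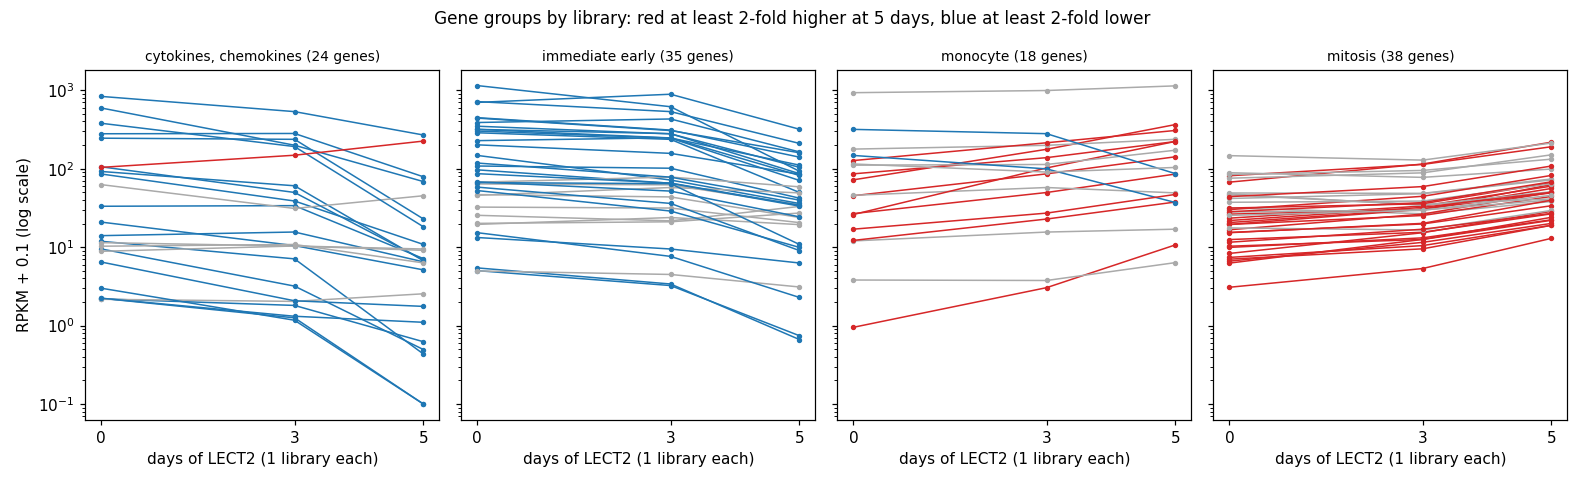
RPKM + 0.1 (vertical axes, log scale) of inflammatory cytokine and chemokine, immediate early, monocyte and mitosis genes in the libraries at 0, 3 and 5 days (horizontal axes), with 1 line per gene coloured as in the plot of granulocyte genes. Blue lines number 18 of 24 and 26 of 35 in the first panels, and red lines number 9 of 18 and 25 of 38 in the others.

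Promoters were compared because many of the largest falls are inducible genes. The table of RefSeq promoters used here (GRCm38.p6), from 250 bases before to 50 bases after a gene start, matched 9092 of the 11494 genes, and a gene with several starts was counted where any of them held a motif. An NF-kB motif, spelled GGANTTTCC and searched on both strands, was present in 152 of the 9092 (1.67%). It was present in 14 of 108 genes at least 4-fold lower (13%) and in 27 of 476 at least 2-fold lower (5.67%). Among genes at least 2-fold higher it was present in 12 of 1425 (0.842%), and among those at least 4-fold higher in 4 of 112 (3.57%). The cytokine and chemokine list held it in 6 of 16 promoters, and the late neutrophil list in 0 of 22. The lines below show it in capitals, with 16 bases to each side, in 6 genes of the cytokine and NF-kB lists that were at least 4-fold lower.
Irg1, chr14:103046911-103046951, plus strand: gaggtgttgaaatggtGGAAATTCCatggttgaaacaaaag
Cxcl1, chr5:90891159-90891199, plus strand: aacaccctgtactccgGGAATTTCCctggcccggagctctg
Cxcl2, chr5:90903787-90903827, plus strand: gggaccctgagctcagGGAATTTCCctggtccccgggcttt
Cxcl10, chr5:92349023-92349063, minus strand: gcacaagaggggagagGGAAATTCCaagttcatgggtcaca
Il6, chr5:30013055-30013095, plus strand: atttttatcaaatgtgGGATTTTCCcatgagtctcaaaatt
Nfkbia, chr12:55492801-55492841, minus strand: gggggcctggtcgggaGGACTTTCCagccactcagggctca

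The motif began 70 bases before the start in Cxcl1, 96 in Cxcl2, 85 in Irg1, 158 in Cxcl10 and 43 in Il6. Nfkbia held 2 matches, of which the one shown began 178 bases before the start. Cxcl1 and Cxcl2 shared the same 9 letters, and the lines of Irg1 and Cxcl10 show the same letters as read on the other strand. Il6, a pro-inflammatory cytokine gene, stood at 85.5, 38.6 and 10.7 RPKM. A match is a stretch of letters and not a measured binding site.

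Mitosis genes were higher as a group. Of 38, 25 were at least 2-fold higher and none 2-fold lower, with 12 higher under TMM scaling and 9 without the length trend. Mki67 (the Ki-67 proliferation antigen) stood at 67.3, 115 and 218 RPKM (log2 ratio 1.69) and Top2a (topoisomerase II alpha) at 81.2, 113 and 190 RPKM. The spindle gene Aspm had the highest ratio, 2.07, at 2.98, 5.23 and 12.8 RPKM. Not all members moved this far: Ube2c, the ubiquitin-conjugating enzyme of anaphase, was at 147, 129 and 212 RPKM, and Spc25 (kinetochore), at 46.2, 34.8 and 41.1 RPKM, had the lowest ratio (−0.17).

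DNA replication genes showed smaller ratios. Of 32, 4 were at least 2-fold higher, a smaller share than the 15.1% of all genes so filtered, and none lower. TMM scaling left 1 higher and removal of the length trend 2, and the median was 0.68 (TMM 0.37, length trend removed 0.29). Rrm2, a subunit of ribonucleotide reductase, stood at 81.1, 91.7 and 161 RPKM, and Pcna, the sliding clamp of DNA polymerase, at 332, 255 and 337 RPKM. Among 14 histone genes of the replication-dependent clusters 7 were at least 2-fold lower and none was at least 2-fold higher, with 8 and 0 under TMM scaling. Removal of the length trend left 5 lower and brought 1 over the threshold, Hist1h2bg, with 28 and 54 reads at 0 and 5 days. The linker histone gene Hist1h1c stood at 144, 110 and 54.0 RPKM. Replication-dependent histone mRNA mostly lacks a poly(A) tail, and its levels in a poly(A)-selected library are uncertain.

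The promoter motifs of the 2 groups differed from the background in other ways. The box CCAAT, on either strand, was present in 26 of 33 promoters of mitosis genes, against 43.4% of all promoters and 43.4% of those of genes at least 2-fold higher. Such shares were not particular to mitosis genes, since the box was also present in 13 of 14 histone promoters, 16 of 16 of cholesterol genes, 23 of 27 of unfolded protein response genes and 11 of 13 of circadian clock genes. The E2F motifs TTTGGCGC and TTTCCCGC were present in 10 of 25 promoters of DNA replication genes, against 3.56% of all. The lines below show 1 CCAAT match, in capitals and written ATTGG where it lies on the other strand, with 18 bases to each side, for 4 mitosis genes at least 2-fold higher.
Aspm, chr1:139454642-139454682, plus strand: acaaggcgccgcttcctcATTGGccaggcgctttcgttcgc
Mki67, chr7:135716545-135716585, minus strand: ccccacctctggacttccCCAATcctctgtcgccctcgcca
Bub1b, chr2:118598080-118598120, plus strand: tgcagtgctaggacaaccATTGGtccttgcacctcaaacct
Kif11, chr19:37376319-37376359, plus strand: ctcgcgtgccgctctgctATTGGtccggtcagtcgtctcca

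Aspm and Mki67 held 3 matches each and the other genes 1 each. Bub1b, of the spindle checkpoint, stood at 16.6, 26.3 and 50.03 RPKM, and Kif11, a spindle motor, at 30.0, 44.4 and 82.0 RPKM.

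For lists of long genes the count depended on the length trend. Large cytoskeleton genes, with a median length of 7926 bases, had 12 of 22 members at least 2-fold higher with the deposited RPKM, 4 with TMM scaling and 0 with the length trend removed. The cross-linker gene Actn1, at 73.6, 94.2 and 34.8 RPKM, was at least 2-fold lower on each of these scales. Chromatin regulators, with a median length of 8350 bases, had 12 of 37 higher and 1 lower, 5 and 2 with TMM scaling, and a median of 0.76, which became −0.10 with the trend removed. The maintenance methyltransferase gene Dnmt1, at 23.3, 41.0 and 79.8 RPKM, still had a log2 ratio of 1.04 after that step.

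Lists of short genes also depended on the scale. Of 75 cytosolic ribosomal protein genes, with a median length of 710 bases, 11 were at least 2-fold lower with the deposited RPKM, 37 with TMM scaling and 2 with the length trend removed. Their share of all reads was 6.47%, 3.86% and 4.23% at 0, 3 and 5 days. Rplp1, of the ribosomal stalk, stood at 3272, 1329 and 1545 RPKM, so its 5-day value lay above its 3-day value. Of 50 nuclear genes of oxidative phosphorylation, 2 were at least 2-fold lower and none was 2-fold higher, with 8 lower under TMM scaling and 0 with the length trend removed. Their median was −0.22 and turned to 0.11 with the length trend removed.

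Erythroid genes differed by stage. None of 16 early erythroid genes was 2-fold apart on any of the 3 scales. Of 20 late erythroid genes, 7 were at least 2-fold lower and 2 at least 2-fold higher, with 8 and 1 under TMM scaling and 7 and 0 after removal of the length trend. Their median of −0.06 became −0.37 and −0.70 on these scales. Hba-a1 (alpha globin) stood at 2253, 1591 and 596 RPKM (log2 ratio −1.92), while Spnb1 (beta spectrin), a gene of 10417 bases, stood at 3.61, 7.99 and 10.03 RPKM (log2 ratio 1.45). With the length trend removed these ratios were −1.35 and 0.50. The alpha globin genes are near-identical to each other, as are the beta globin genes, and their reads may be split among copies.

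The medians of lymphoid lists lay under 0, against 0.31 over all genes. Of 20 pro-B and pre-B cell genes, 4 were at least 2-fold higher and 1 lower, and TMM scaling gave 0 higher and 4 lower. Rag1, the recombinase of antigen receptor genes with 6669 bases, stood at 17.9, 42.4 and 41.4 RPKM, and Cd79a at 827, 614 and 532 RPKM. Of 18 T cell genes, 3 were at least 2-fold lower and 1 at least 2-fold higher (8 and 0 with TMM scaling), with a median of −0.60. In the 3-day library 5 of them were at least 2-fold lower. The receptor chain gene Cd3d stood at 10.5, 3.97 and 2.57 RPKM. Of 18 mature B cell genes, 3 were at least 2-fold lower and none higher (6 and 0 with TMM scaling), with a median of −0.43. Of 15 natural killer cell genes, 1 was at least 2-fold lower and none higher, with a median of −0.12, whereas 5 were at least 2-fold lower in the 3-day library.

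Genes of the osteolineage list gave a small signal that was lower at 5 days. Its members Runx2 and Spp1 also stand in other lists. Of 11 osteolineage genes, 8 were at least 2-fold lower and none was 2-fold higher, with a median of −1.31 (TMM −1.62, length trend removed −1.63). Col1a1 (collagen type I) stood at 13.7, 21.3 and 5.45 RPKM, and Spp1 (osteopontin) at 25.7, 17.8 and 7.31 RPKM. Phex, an endopeptidase gene of osteocytes, stood at 2.38, 0.611 and 0.298 RPKM. The highest ratio was that of the phosphatase gene Alpl, at 3.50, 3.04 and 3.48 RPKM (log2 ratio −0.01). By cell counts, the study reported no change in the number of osteolineage cells with LECT2. The list took 0.0291% of the reads at 0 days and 0.0124% at 5 days, and how many bone-lining cells came away with each flush is not given in the sources used here.

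Genes named by the study for its question of stem cell mobilisation are given with their levels. Cxcl12, the chemokine that holds stem cells in the marrow, stood at 15.9, 10.9 and 5.38 RPKM at 0, 3 and 5 days (log2 ratio −1.55, interval −1.72 to −1.42). Its receptor gene Cxcr4 stood at 422, 371 and 274 RPKM (log2 ratio −0.62). Dpp4, the peptidase that inactivates CXCL12, stood at 18.7, 25.3 and 28.9 RPKM, with a log2 ratio of 0.63 that turned to −0.06 with the length trend removed. These are RNA levels. For protein in the BM, the study reported slightly raised total SDF-1 (CXCL12), lower intact SDF-1 and higher activity of CD26 (DPP4) with LECT2.

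Cxcl12 was the lowest by ratio of the 10 stromal and endothelial genes, of which 4 were at least 2-fold lower and 1 was at least 2-fold higher (4 and 0 with TMM scaling). Of the receptors proposed for LECT2, Cd209a stood at 10.4, 8.68 and 8.38 RPKM and Met at 1.61, 3.69 and 9.18 RPKM (log2 ratio 2.44, interval 2.27 to 2.76). Of 17 genes of stem and progenitor cells, 2 were at least 2-fold higher and none lower with the deposited RPKM, and 0 and 1 with TMM scaling. Their median was 0.12 (TMM −0.17, length trend removed −0.22), against 0.31 over all genes. The 3 most abundant members went both ways. Myb, a factor of progenitors, stood at 89.8, 114 and 139 RPKM, with a log2 ratio of 0.63 (length trend removed 0.08). Sox4 stood at 97.5, 68.3 and 53.1 RPKM and Ifitm3 at 695, 678 and 525 RPKM.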

How the data were processed

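The samples were 3 libraries of mouse BM cells, at 0, 3 and 5 days of LECT2, 1 library each. The authors deposited, for each pair of time points, whole read counts per gene and the RPKM computed from the count, the gene length and the reads on all genes. The methods name Cufflinks, and the submitters' processing notes name the genome build mm8. The authors' columns of log2 ratio, p-value and FDR were not used. Genes without reads, listed at 0.01 RPKM, were set to 0. Of several rows with 1 name, for 215 names, the row of highest mean RPKM was used.

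Ratios were log2((RPKM + 0.1) of 5 days over 0 days), which understates changes of low genes. A gene was counted where it was at least 2-fold apart with at least 1 RPKM in either library. Intervals of 95% are exact (Clopper-Pearson) for the ratio of counts, and cover counting error only. Copies made by PCR were counted as separate reads, which would make the intervals too narrow. Genes with 3 reads or fewer in a library got no printed fold, but they were kept in the counts of genes apart by a threshold. List members whose mean reached 1 RPKM were summarised, and 1112 of 1128 list entries had a row. TMM factors were computed with edgeR 4.0.16, median-of-ratios factors with DESeq2 1.42.0, and the length trend by lowess (span 0.3, statsmodels 0.14.6), centred on the TMM median. Python 3.11.15, pandas 2.3.3, numpy 2.4.6 and scipy 1.17.1 were used, and the steps were tested on simulated counts.

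Named genes were the 15 largest rises and falls, the 10 largest with the length trend removed, per list the 3 members with the highest mean RPKM and the largest rise and fall, and the genes the study names. Il6, Bub1b, Kif11, Cxcl3, Il23a, Nr4a1, Ptprc and Csf3r were named after their values were seen. The members and lists were chosen with earlier results of these data known. Promoters came from RefSeq (GRCm38.p6) by gene ID.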

Additional observations from a re-analysis of the deposited data

How the results depend on the processing

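With 1 library per time point no replicate could be left out. No paired analysis was possible because the result comes from no test. The count of genes at least 2-fold higher (1786) became 1140 with a pseudocount of 1, 832 with TMM, 858 with median-of-ratios scaling, 1114 when scaled without the 100 most abundant genes, 593 with the length trend removed, 153 at a 4-fold threshold and 1072 where the counting interval had to pass the threshold. The count lower (679) became 1144 with TMM, 1125 with median-of-ratios, 420 at a minimum of 5 RPKM, 1178 with no minimum, 186 at 4-fold and 409 by the interval. The share higher (72.5%) became 70.4% with a pseudocount of 1, 42.1%, 43.3% and 53.5% under the 3 scalings, 40.5% with the length trend removed, 75.03% at 5 RPKM, 66.5% with no minimum and 45.1% at 4-fold. A pseudocount of 0.01 and summed rows left all of these within 1.5 times or the binomial interval. Of the 16 list medians at least 0.5 in size, that of chromatin regulators reversed, to −0.10 with the length trend removed. Counting smaller medians, 7 of 49 changed sign under each of the 3 scalings, 10 with the length trend removed and 2 at 5 RPKM. Of 37 named genes tried, 21 moved beyond their counting interval with a pseudocount of 1, 18 with TMM and 21 with the length trend removed, where 1 changed sign, Dpp4 (0.63 to −0.06). Beyond the construction of each setting, the cause was not tested. Depth limits low genes, short ones most, where few reads set the ratio.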

Other observations

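Of 27 unfolded protein and integrated stress response genes, 1 was at least 2-fold higher and 2 were at least 2-fold lower (0 and 3 with TMM scaling). The list does not hold Ern1, the IRE1 sensor of this response, which was among the 15 largest rises. The chaperone gene Hsp90b1 stood at 396, 328 and 401 RPKM at 0, 3 and 5 days, while Ppp1r15a (GADD34), which restores translation after stress, stood at 206, 127 and 55.2 RPKM. Of 23 glycolysis genes, 2 were at least 2-fold lower, and the lactate exporter gene Slc16a3 stood at 112, 116 and 28.0 RPKM. Of 31 proteasome genes and 15 hypoxia response genes, none was 2-fold apart, although 2 hypoxia response genes were 2-fold lower with TMM scaling. Of 15 p53 target genes 1 was at least 2-fold higher and 5 lower, and of 16 glucocorticoid target genes also 1 and 5 (0 and 5 with TMM scaling). The lower glucocorticoid targets included Il1r2, Lcn2 and Nfkbia, which also stand in the late neutrophil, granule and NF-kB lists. Of 29 interferon-stimulated genes, 2 were at least 2-fold higher and 4 lower (0 and 8 with TMM scaling), with Isg15 at 57.8, 49.3 and 21.6 RPKM and Mx1 at 5.85, 8.47 and 12.9 RPKM.

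Toll-like receptor and C-type lectin genes had 5 of 21 members at least 2-fold higher and 4 lower (3 and 5 with TMM scaling), with a median of −0.03. Tlr8 had the highest ratio (2.90) and Clec4d the lowest (−3.60). Of 9 eosinophil genes 1 was at least 2-fold higher and none lower (none either way with TMM scaling). Epx (eosinophil peroxidase) stood at 135, 205 and 305 RPKM, and Prg2 (major basic protein) at 2771, 2202 and 2630 RPKM. Of 13 basophil and mast cell genes 2 were at least 2-fold higher and 4 lower, the latter including Ccl3 and Ccl4, which also stand in the cytokine list. Prss34, a basophil protease, stood at 435, 345 and 397 RPKM and Ms4a2, a chain of the IgE receptor, at 3.13, 7.12 and 11 RPKM.

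Some common leukocyte genes were unusually low in the tables. Ptprc (CD45), carried by nearly all marrow leukocytes, had 82, 410 and 557 reads at 0, 3 and 5 days, and a log2 ratio of 2.64. Csf3r, the receptor for granulocyte colony-stimulating factor on neutrophils, stood under 1 RPKM in every library, at 0.408, 0.953 and 0.327 RPKM. How reads were assigned to these rows was not tested.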
